A study of Mus musculus with 8 samples.

Results

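The immediate-early and NF-kB feedback genes of mouse whole blood were followed through 13 probe sets of 10 genes, out of 45101 probe sets on the array. The probe sets were chosen by their IDs, with genes given by the Affymetrix annotation of the array: Fos, Jun with a pair of probe sets, Junb, Egr1, Ier3, Atf3, Btg2, Zfp36, Nfkbia with a pair and Tnfaip3 with a pair. All 13 were present on all 8 arrays, and no filter on low values was applied. Blood RNA was on 4 arrays labelled normobaric hypoxia and 4 labelled control. The hypoxia animals lived in a sealed chamber in which oxygen was lowered from 21% to 8% over 14 days, and were bled from the vena cava after 15 days. Control animals stayed at room condition, and their blood came from the same vessel. RNA was taken from 500 µl of blood in hypoxia and from 100 µl in control, so hypoxia and blood volume cannot be told apart. No genotype, strain, sex or age is given in the sources used here, nor whether every array stands for its own animal. The p-values therefore cover only the spread among these arrays, which may be technical.

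Immediate-early genes are transcribed within minutes of a stimulus, from factors already present in the cell, and their mRNAs decay fast. Fos, Jun, Junb and Atf3 encode leucine-zipper factors that pair into AP-1 and related dimers, and Egr1 encodes a zinc-finger factor. NF-kB is held in the cytoplasm by IkBa, the product of Nfkbia. On stimulation IkBa is destroyed, NF-kB enters the nucleus, and it switches on genes of its own shut-off, among them Nfkbia and Tnfaip3, which encodes the ubiquitin-editing enzyme A20. Zfp36 encodes tristetraprolin, which binds AU-rich mRNAs such as that of TNF and speeds their decay. In blood these genes are well known from neutrophils, monocytes and lymphocytes.

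The 250 bases before the annotated start are shown for the 4 genes that had a probe set with all hypoxia arrays below all control arrays, since their groups were separate in the same direction. The sequences are RefSeq's, on build GRCm38.p6, written 5′ to 3′ on the gene's own strand, which is the minus strand for all 4. The windows are chr12:55492648-55492897 for Nfkbia, chr10:19015411-19015660 for Tnfaip3, chr7:28379229-28379478 for Zfp36 and chr1:134079156-134079405 for Btg2. Capitals mark matches to the kappaB consensus in Nfkbia and Tnfaip3, to the CArG box in Zfp36 and to TGACGTCA, the cAMP response element, in Btg2.
Nfkbia: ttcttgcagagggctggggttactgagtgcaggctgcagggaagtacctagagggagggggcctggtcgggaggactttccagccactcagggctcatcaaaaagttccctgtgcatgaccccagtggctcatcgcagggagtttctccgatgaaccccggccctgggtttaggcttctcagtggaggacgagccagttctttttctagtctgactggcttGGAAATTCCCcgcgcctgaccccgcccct
Tnfaip3: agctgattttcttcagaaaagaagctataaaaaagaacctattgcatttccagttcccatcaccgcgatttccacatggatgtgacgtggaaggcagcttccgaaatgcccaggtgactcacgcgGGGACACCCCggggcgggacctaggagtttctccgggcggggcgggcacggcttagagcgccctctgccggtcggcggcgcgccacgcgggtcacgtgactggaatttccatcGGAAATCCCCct
Zfp36: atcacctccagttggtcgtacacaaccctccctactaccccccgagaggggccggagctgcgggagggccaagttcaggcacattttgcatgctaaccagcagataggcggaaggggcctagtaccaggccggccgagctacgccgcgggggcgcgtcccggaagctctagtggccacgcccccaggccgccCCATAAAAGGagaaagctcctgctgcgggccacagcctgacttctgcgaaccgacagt
Btg2: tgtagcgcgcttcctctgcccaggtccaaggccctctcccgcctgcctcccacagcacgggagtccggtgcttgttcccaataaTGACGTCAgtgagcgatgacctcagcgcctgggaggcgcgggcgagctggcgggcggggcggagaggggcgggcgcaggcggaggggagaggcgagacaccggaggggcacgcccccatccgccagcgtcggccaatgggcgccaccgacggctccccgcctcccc

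Both strands were searched, and a match describes letters, not binding. The kappaB consensus was matched in Nfkbia starting 29 bases before the annotated start, and in Tnfaip3 at 125 and 12 bases before it. Among 10 windows for 9 of the genes, 4 held it (Nfkbia, the first Tnfaip3 window, Fos and Ier3), which is 40%, against 3.90% of 32851 mouse promoter windows of the same length. The core ACGTG of the hypoxia response element stood in 3 of the 10, those of Ier3 and both Tnfaip3 windows, or 30%, against 16.6% of all windows. The AP-1 motif TGANTCA was found in the first Tnfaip3 window alone, and 6.75% of all windows held it. The CArG box, which serum response factor binds, was matched in Zfp36 alone among these windows, 58 bases before the start, and in 1.47% of all windows. Its first base was shared with a match to GGGCGG, the GC box, on the other strand. In Btg2, TGACGTCA began 166 bases before the start, and 1.55% of all windows held it. The GC box was present in 8 of the 10 windows, against 32.7% of all, and overlapped the kappaB match of Ier3. TATAAA was present in the windows of Fos and Tnfaip3, against 12.4% of all, and TGACGTA in those of Fos and Atf3, against 1.08%. No window of Egr1 was read. The set was picked by name as immediate-early and NF-kB feedback genes, so its kappaB share is not independent of that choice. No test was made of these shares.

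Of the members followed, Zfp36 and the dimmer Nfkbia probe set were called lower in hypoxic blood, and none was called higher. With 1 array left out, the Zfp36 call held in only 4 of 8 fits and the Nfkbia call in only 1 of 8. Both calls were lost with the replicate number as a block. Zfp36 was at 0.225 times its control level and Nfkbia at 0.314 times at the probe set called. A further Nfkbia probe set, 1 of the Tnfaip3 probe sets and Btg2 had every hypoxia array below every control array but missed the threshold in the main fit. Fos, Jun, Junb, Egr1 and Atf3 overlapped between the groups. Ier3 was above every control array on 3 of the 4 hypoxia arrays and overlapped control through the other one. It was dim, below the array median on 3 of the 4 hypoxia arrays and on all 4 control arrays.

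The call rule was an adjusted p under 0.05 in the main fit. This was a limma fit with a constant prior over 45037 probe sets, on log2 of the deposited intensities, as hypoxia minus control. It called 2 of the 13 members, where 6.25% of all probe sets were called. Lower in hypoxia were 2 members, against 2.60% of all probe sets, and higher were 0, against 3.65%. Of the 9 members above the median level of all probe sets, 2 were called lower and 0 higher, where 4.33% and 5.68% of all such probe sets were. That cut left out the 4 members with a positive difference, so its count of 0 higher was fixed in advance. At an unadjusted limma p under 0.05 the count was 7 members, against 25.6% of all probe sets. Lower were 5 of them, against 11.6% of all, and higher were 2, against 13.9%. In 5 of the 13 all hypoxia values lay below all control values, against 10.5% of all probe sets, and in 0 of the 13 above, also against 10.5%. The median member difference was -0.99 log2 units, and the median of all probe sets was 0.19. Members were chosen as probe sets of named genes, with earlier results of these data known. The shares are therefore a description, and no test was made of the list.

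Some facts of the whole array touch every value here. Median intensity was 229.99 to 244.7 on hypoxia arrays and 163 to 202 on control arrays. Bacterial and phage RNA added as hybridization controls was brighter in hypoxia by 0.94 log2 units (exact permutation p = 0.0286, the smallest that 4 arrays against 4 allow). The median difference of all probe sets moved to 0.00 after quantile normalization, to -0.15 with arrays centred on their medians and to -0.74 with arrays centred on the hybridization controls. Calls over all probe sets were 1643 higher and 1173 lower as deposited, 1100 higher and 2433 lower with median centring, and 593 higher and 6129 lower with centring on hybridization controls. Tfrc, the transferrin receptor of immature red cells and dividing cells, had an intensity of 751 to 1863 in hypoxia and 194 to 484 in control at its 3′ control probe set. The 3′ control probe set of Gapdh, a glycolytic enzyme, was higher in hypoxia by 1.22 log2 units (exact permutation p = 0.0286) and that of Actb, a cytoskeletal actin, by 0.03 (exact permutation p = 0.943). The part of these differences in the results below was not tested. Leukocyte markers were not read, because the tables used here pair no further probe set with a gene. In bulk blood, fewer cells of a type and less RNA per cell cannot be told apart.

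Nfkbia encodes IkBa, the inhibitor that holds NF-kB in the cytoplasm. At the dimmer of its probe sets, the one called, its intensity was 262, 339.7, 309 and 239.9 on hypoxia arrays 1 to 4, against 909, 853, 899.5 and 971 on control arrays 1 to 4. Every hypoxia array stood below every control array, and both groups were tight. The log2 difference was -1.67 (SE 0.33, 95% interval -2.42 to -0.92, limma adjusted p = 0.0287). With arrays centred on their medians it was -2.01 (limma adjusted p = 0.0233). The call rested on the full set of arrays, since leaving out any array but hypoxia 2 gave an adjusted p of 0.0546 to 0.0815, with differences of -1.76 to -1.59 over all 8 omissions.

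The brighter Nfkbia probe set, 1449731_s_at, carries a suffix that marks probes shared by several transcripts. It read 1919, 3677, 3409 and 2550.4 on hypoxia arrays 1 to 4, against 7657, 8031, 6777 and 9259 on control arrays 1 to 4. The groups were again separate. Its difference of -1.49 (SE 0.37, 95% interval -2.34 to -0.65) had a limma adjusted p of 0.0516 in the main fit. It passed under 8 of 9 other ways of processing, such as quantile normalization with -1.61 (limma adjusted p = 0.0411). It passed in 0 of the 8 fits with 1 array left out (limma adjusted p 0.0554 to 0.124), and its limma adjusted p was 0.151 with the replicate block. The log2 ratio of the 2 Nfkbia probe sets differed between hypoxia and control by -0.18 (SE 0.16, exact permutation p = 0.314). Without hypoxia 1, whose ratio lay apart from those of the other hypoxia arrays, it was -0.32 with the groups separate (exact permutation p = 0.0571, the smallest that 3 arrays against 4 allow). Every other omission gave -0.22 to -0.11 (exact permutation p 0.286 to 0.571). As hypoxia 1 is singled out by its own ratio, the separation without it is no evidence that the probe sets changed unequally.

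Tnfaip3 encodes A20, which removes activating ubiquitin chains from the adaptors that signal to NF-kB. At its brighter probe set, 1433699_at, it read 34.3, 48.4, 48.1 and 343 on hypoxia arrays 1 to 4, against 718, 415, 624 and 499 on control arrays 1 to 4. Hypoxia 1, 2 and 3 were far below control, and hypoxia 4 lay closer to the lowest control. The difference was -2.93 (SE 0.73, 95% interval -4.59 to -1.28, limma adjusted p = 0.0514). Without hypoxia 4 it was -3.68 (limma adjusted p = 0.0317), and the other 7 omissions did not pass (limma adjusted p 0.0925 to 0.115). With arrays centred on their medians it was -3.27 (limma adjusted p = 0.0333), and with the replicate block the limma adjusted p was 0.135.

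The other Tnfaip3 probe set, 1450829_at, was dim. It read 6.73, 122, 195 and 84.9 on hypoxia arrays 1 to 4, against 43.4, 9.07, 4.93 and 4.01 on control arrays 1 to 4. All 8 values lay below the median of their array, and 4 were among the dimmest 10% of probe sets there. The difference of 2.69 (SE 1.17, limma adjusted p = 0.192) did not pass, and the groups overlapped. With an offset of 100 before log2 it was 0.73. No ratio of the Tnfaip3 pair is given, since low values of the dimmer probe set would set its size. Of the pair only the brighter one is listed in the authors' deposited table.

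Zfp36 encodes tristetraprolin, which limits cytokine mRNAs. Its probe set, 1452519_a_at, read 289, 415, 363 and 212 on hypoxia arrays 1 to 4, against 1646, 1470.3, 1162 and 1274 on control arrays 1 to 4. The highest hypoxia array was well under the lowest control array. The difference was -2.15 (SE 0.37, 95% interval -3.00 to -1.30, limma adjusted p = 0.0205), and -2.49 with arrays centred on their medians (limma adjusted p = 0.0230). Leaving out hypoxia 1 gave an adjusted p of 0.0509, and leaving out control 1, 2 or 3 gave 0.0641, 0.0677 and 0.0584. The difference itself stayed between -2.29 and -1.97 over all 8 omissions.

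Btg2, a p53- and growth-factor-inducible gene that restrains cell division, at probe set 1416250_at read 309, 220.0, 293 and 58.2 on hypoxia arrays 1 to 4, against 404, 769, 634 and 759.7 on control arrays 1 to 4. All hypoxia arrays lay below the lowest control, and hypoxia 4 lay furthest down. The difference of -1.75 (SE 0.60, 95% interval -3.12 to -0.39) had a limma adjusted p of 0.114. It passed under 4 of 9 other ways of processing, among them an offset of 100 before log2 with -1.27 (limma adjusted p = 0.0264). Also among the 4 was the filter on dim probe sets. Btg2 lay below the array median on 2 hypoxia arrays and 0 control arrays. It thus passed that filter partly through control, and its call there is no further support. Without hypoxia 4 the difference was -1.20 (limma adjusted p = 0.131).

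**Figure D1:**
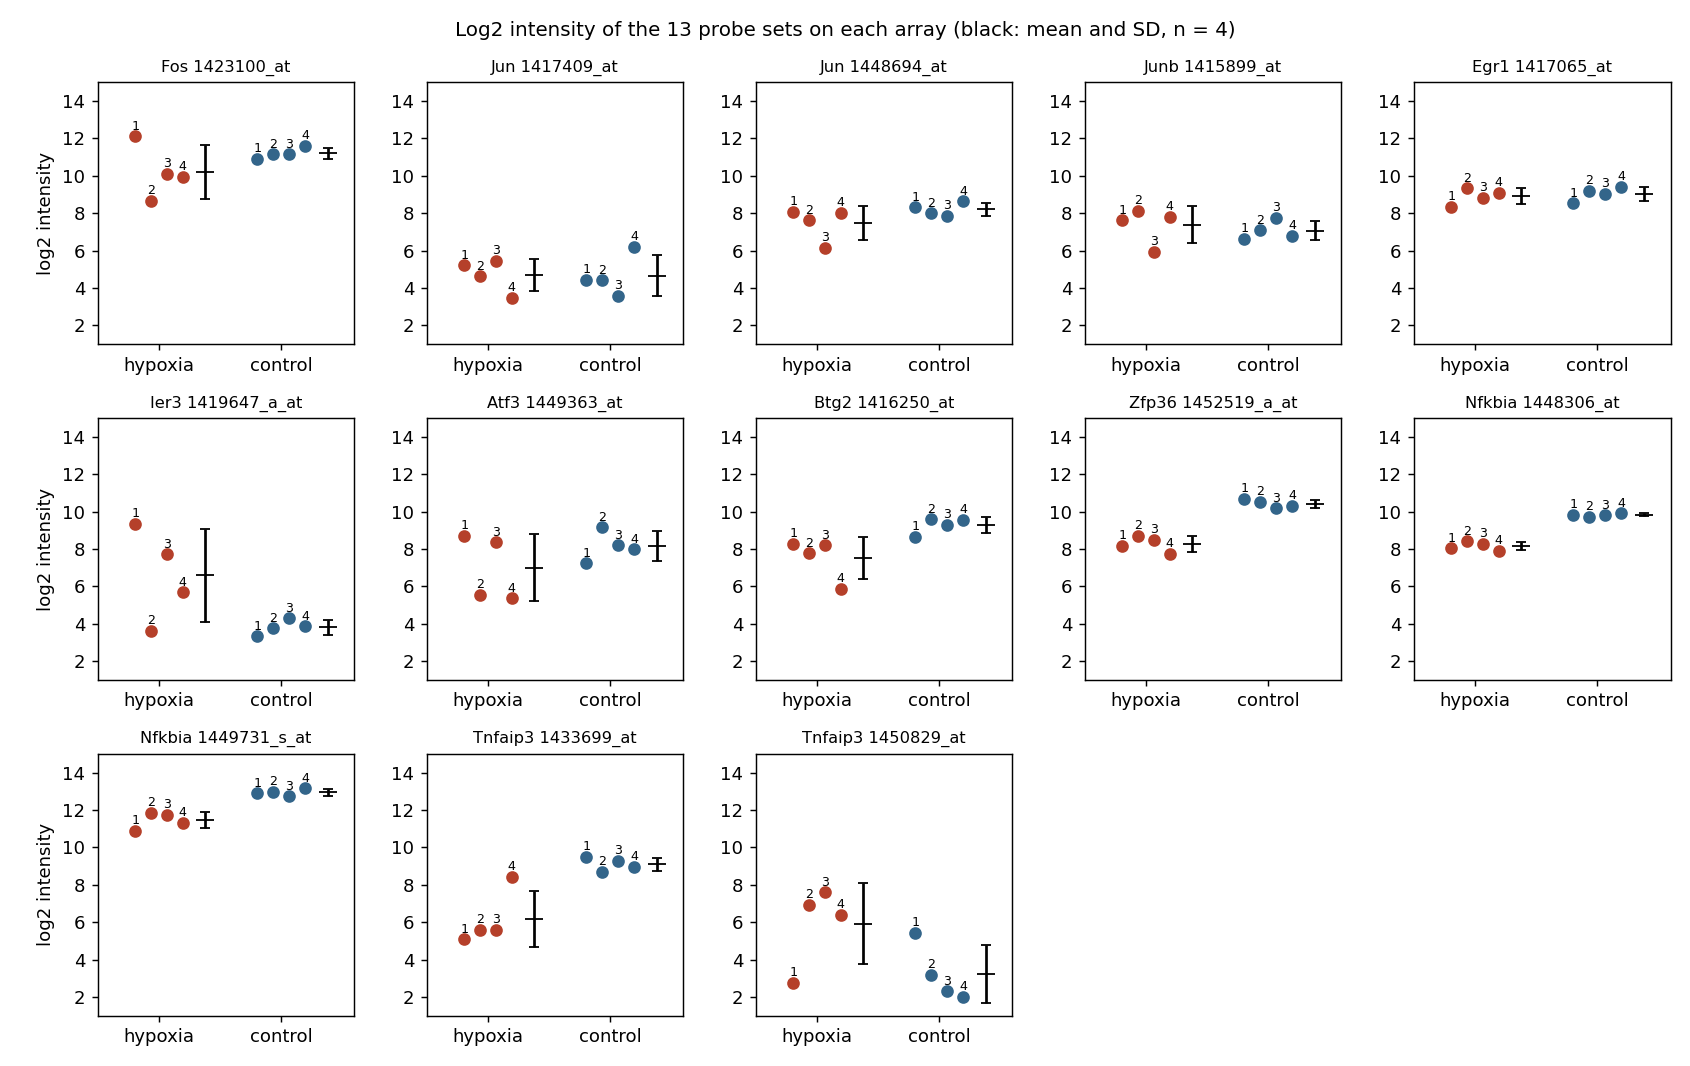
Log2 intensity (vertical axis) of each of the 13 probe sets on the 4 hypoxia arrays (red, left) and 4 control arrays (blue, right), with the array number above each point and mean and SD in black. Zfp36, Btg2, both Nfkbia probe sets and the brighter Tnfaip3 probe set show separate groups, whereas Fos and Ier3 show hypoxia arrays spread widely around or above tight controls.

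Fos, the partner of Jun in AP-1, read 4416, 402, 1099.9 and 988 on hypoxia arrays 1 to 4, against 1913, 2255, 2257 and 3113 on control arrays 1 to 4. Hypoxia 1 was above every control array, and the other 3 hypoxia arrays were below every control array. The SD of log2 intensity was 1.43 in hypoxia and 0.29 in control. The difference of -0.99 (SE 0.69, 95% interval -2.57 to 0.58, limma adjusted p = 0.404) did not pass. Without hypoxia 1 it was -1.63 (limma adjusted p = 0.113), and without hypoxia 2 it was -0.48 (limma adjusted p = 0.664).

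Ier3, an immediate-early gene tied to cell survival, at probe set 1419647_a_at read 657, 12.3, 209 and 51.1 on hypoxia arrays 1 to 4, against 10.002, 13.5, 19.5 and 14.6 on control arrays 1 to 4. Hypoxia 1, 3 and 4 stood above all controls, and hypoxia 2 lay within the control range. On 7 of the 8 arrays it lay below the array median, and on 3 among the dimmest 10%. The difference was 2.78 (SE 1.11, 95% interval 0.26 to 5.31, limma adjusted p = 0.161). Without hypoxia 2 it was 3.77 (limma adjusted p = 0.0465), without hypoxia 1 it was 1.86 (limma adjusted p = 0.265), and with an offset of 100 before log2 it was 1.13.

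Atf3, a stress-induced partner of Jun that often represses, read 418, 46.9, 329.9 and 41.0 on hypoxia arrays 1 to 4, against 151, 575, 292 and 251 on control arrays 1 to 4. Hypoxia 1 and 3 lay within the control range and hypoxia 2 and 4 below it. The difference was -1.15 (SE 0.88, 95% interval -3.16 to 0.86, limma adjusted p = 0.454). Omission of hypoxia 2 or 4 brought it to -0.67 or -0.60.

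Jun at its brighter probe set, 1448694_at, read 271, 198, 71.4 and 259.8 on hypoxia arrays 1 to 4, against 321, 257, 230.1 and 399.7 on control arrays 1 to 4. Hypoxia 2 and 3 were below the control range, hypoxia 1 and 4 inside it. The difference was -0.73 (SE 0.51, limma adjusted p = 0.409), and -0.29 without hypoxia 3 (limma adjusted p = 0.693). At its dimmer probe set, 1417409_at, Jun was low on all 8 arrays, at 11.1 to 43.6 in hypoxia and 12.1 to 74.1 in control. There the difference was 0.02 (SE 0.67, limma adjusted p = 0.987), with a sign that turned under quantile normalization (-0.29), median centring (-0.32) and centring on hybridization controls (-0.91).

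Junb, an AP-1 subunit that can oppose Jun, read 195, 282, 60.7 and 226 on hypoxia arrays 1 to 4, against 98.8, 135, 216 and 111 on control arrays 1 to 4. Hypoxia 2 and 4 were above the control range and hypoxia 3 below it. The difference of 0.31 (SE 0.56, 95% interval -0.97 to 1.59, limma adjusted p = 0.771) turned to -0.03 with median centring and to -0.63 with centring on hybridization controls. Without hypoxia 2 it was 0.0534, and without hypoxia 3 it was 0.79.

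Egr1, a zinc-finger factor induced by growth signals, read 324, 647, 449 and 549 on hypoxia arrays 1 to 4, against 370.1, 582, 525 and 677 on control arrays 1 to 4. Hypoxia 1 lay below the control range and the other 3 hypoxia arrays within it. The difference was -0.14 (SE 0.39, limma adjusted p = 0.856), and its 95% interval of -1.04 to 0.76 includes a fall of about 1 log2 unit.

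**Figure D2:**
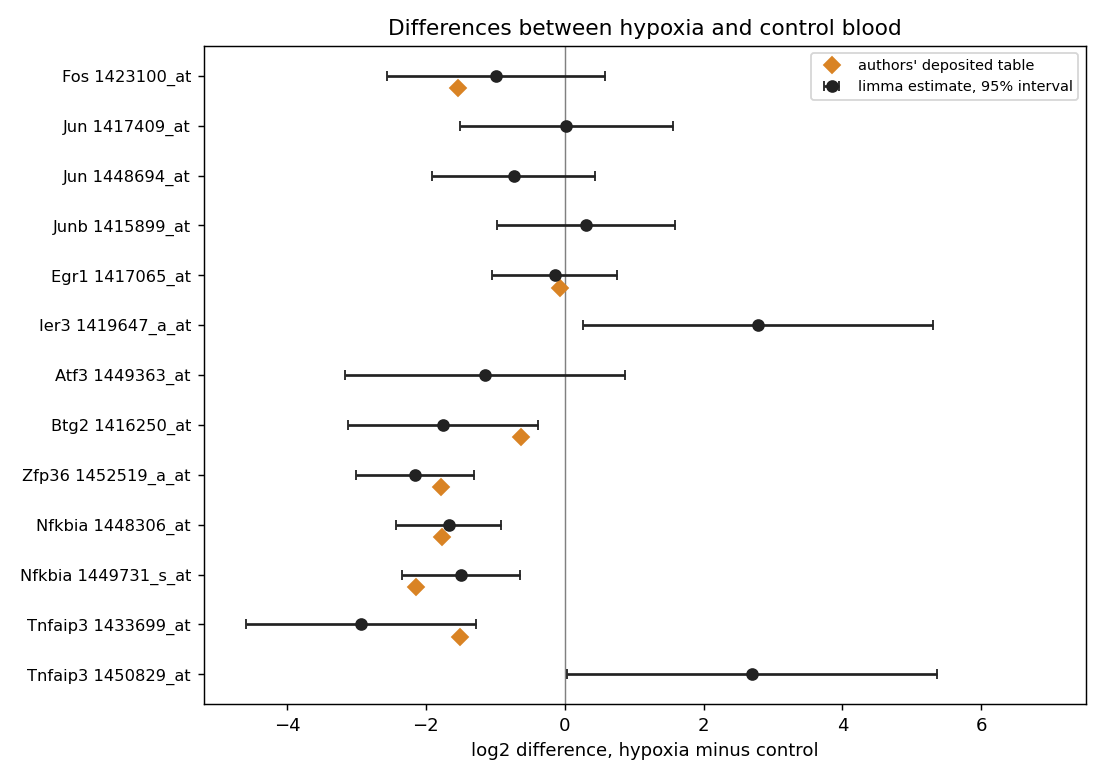
Log2 difference, hypoxia minus control (horizontal axis), of the 13 probe sets with limma's 95% interval (black) and, for the 7 listed there, the value of the authors' deposited table (orange). Intervals of both Nfkbia probe sets, Zfp36, Btg2 and the brighter Tnfaip3 probe set lie below 0, and those of Ier3 and the dimmer Tnfaip3 probe set lie above 0. No interval is adjusted for the number of probe sets.

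The spread between arrays differed with the group. In 12 of the 13 members the SD of log2 intensity was larger in hypoxia than in control, against 60.3% of all probe sets. The ratio of the SDs, hypoxia over control, had a median of 2.30 over members and 1.22 over all probe sets. It was 6.27 for Ier3, 4.85 for Fos and 4.33 for the brighter Tnfaip3 probe set. The dimmer Jun probe set, at 0.794, was the exception. The ratio of Ier3 is of uncertain size, since Ier3 lay below the array median on 7 of the 8 arrays. The hypoxia spread of the brighter Tnfaip3 probe set came mainly from hypoxia 4, at 8.42 against 5.10 to 5.60 on the log2 scale. That of Fos came mainly from hypoxia 1 and 2. These values describe the arrays, and no test was made of them.

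Hypoxia arrays did not rank alike across the genes. Among the 9 immediate-early probe sets, Zfp36 included, hypoxia 1 was the highest hypoxia array in 5, those of Fos, the brighter Jun probe set, Ier3, Atf3 and Btg2. It was the lowest for Egr1 and the third for Junb and Zfp36. Hypoxia 2 was the highest in 3 of the 9, and hypoxia 4 was the highest in 0 and the lowest in 4. Among the 4 probe sets of Nfkbia and Tnfaip3, which stand for only 2 genes, hypoxia 1 was the lowest in 3 and the third in the other. These ranks do not part the 2 kinds of gene. Relative to the control mean, taken on the log2 scale, hypoxia 1 was at 1.88 times for Fos, while it was at 0.288 times for the dimmer Nfkbia probe set and 0.210 times for Zfp36.

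**Figure D3:**
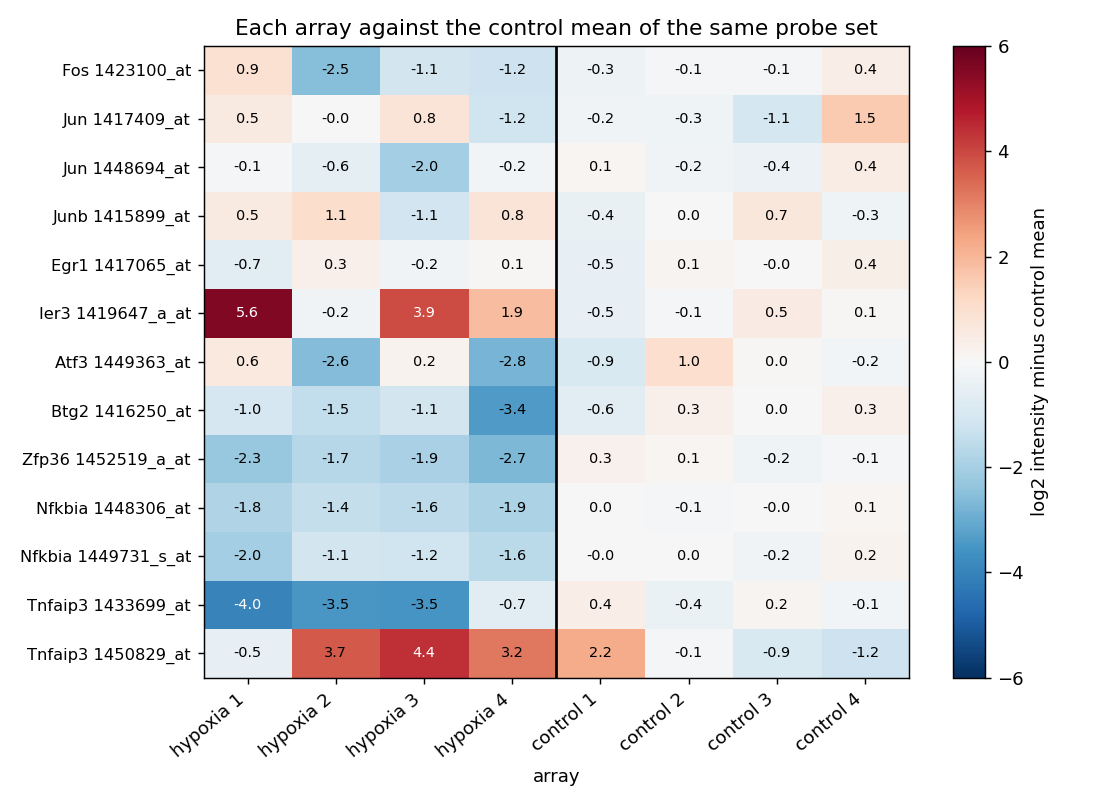
Log2 intensity of each array minus the control mean of the same probe set (colour and number), with hypoxia arrays 1 to 4 left of the line and control arrays 1 to 4 right of it. The rows of Zfp36 and Nfkbia are low on all 4 hypoxia arrays, and those of Fos, Ier3 and Atf3 differ from one hypoxia array to the next.

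Ratios within an array do not depend on the scaling of that array. Set against the 3′ control probe set of Actb, Zfp36 differed by -2.18 (SE 0.38), the dimmer and brighter Nfkbia probe sets by -1.70 (SE 0.27) and -1.52 (SE 0.35), the brighter Tnfaip3 probe set by -2.96 (SE 0.76) and Btg2 by -1.78 (SE 0.65). In each of these 5 ratios all hypoxia arrays were below all control arrays, with an exact two-sided permutation p of 0.0286. The adjusted p over the 24 ratios computed was 0.0980, so none passes after adjustment. As 0.0286 is the smallest p that 4 arrays against 4 allow, a larger difference could not have given a lower p. Fos against Actb differed by -1.02 (SE 0.61, exact permutation p = 0.143). The other 7 of the 13 ratios to Actb also overlapped between groups. Among them were Ier3 at 2.76 (SE 1.16, exact permutation p = 0.0571) and the dimmer Tnfaip3 probe set at 2.67 (SE 1.44, exact permutation p = 0.114), both of uncertain size because their low values were dim. The ratio of Ier3 to Fos is left out for the same reason. The other 7 ratios to Fos had unadjusted exact permutation p-values of 0.257 to 0.914.

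Of the 13 members, 7 are in the authors' deposited table, whose log2 differences are not those of the intensities used above, and all 7 have the sign fitted here. There 6 of the 7 have a q-value under 5% and are lower in hypoxia, where 41.1% of the 19916 probe sets in the authors' deposited table are. It gives Nfkbia log2 differences of -1.77 and -2.14, Zfp36 -1.78 and the brighter Tnfaip3 probe set -1.504, each with a q-value of 0% in the authors' deposited table. The authors' deposited table gives Fos -1.53 with a q-value of 0.0889% and Btg2 -0.63 with a q-value of 0.210%, neither of which passed in the fit above. Egr1 stands at -0.06 with a q-value of 17.9% in the authors' deposited table. Both Jun probe sets, Junb, Ier3, Atf3 and the dimmer Tnfaip3 probe set are not listed there, and no source used here states how its probe sets were chosen.

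**Figure D4:**
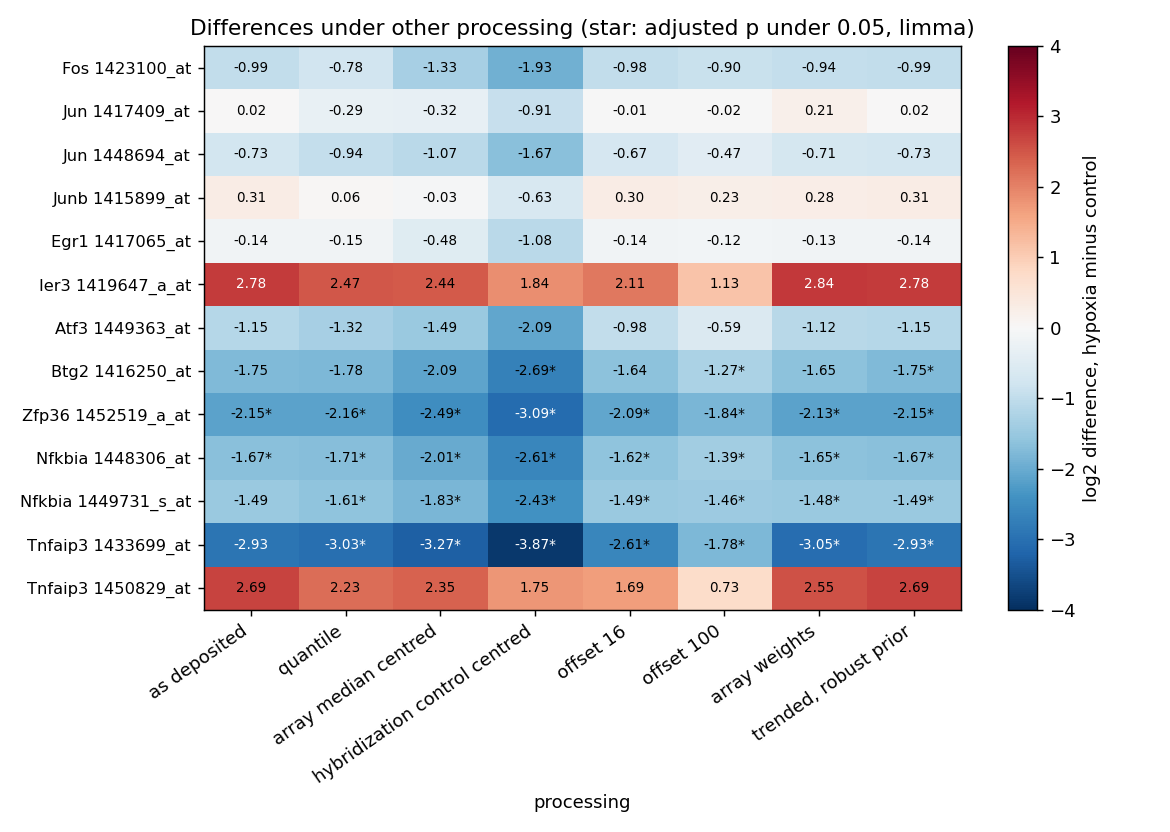
Log2 difference, hypoxia minus control, of the 13 probe sets (rows) under 8 ways of processing (columns), with a star where limma's adjusted p was under 0.05. The replicate block, under which no probe set was called, is not shown. Zfp36 and the dimmer Nfkbia probe set carry a star in all 8 columns. The brighter probe sets of Nfkbia and Tnfaip3 carry one in all but the main fit (column as deposited). The signs of the dimmer Jun probe set and Junb turn between columns.

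Likeness to Nfkbia and Fos was measured as Pearson's r of log2 intensity over the 8 arrays, among 22509 probe sets of higher mean level than the median. The probe set most like the dimmer Nfkbia one had an r of 0.999, and its own difference was -1.21 (limma adjusted p = 0.0606). As many as 1460 of the 22509 had an r above 0.9 with it. For Fos the highest r was 0.951, and 18 had an r above 0.9. These values are a description over arrays that fall into 2 groups, and the tables used here give neither probe set a gene name.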

How the data were processed

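Whole-blood RNA was primed with oligo(dT), amplified once and labelled with biotin, per the labels' protocols. The deposited value table holds 1 linear intensity per probe set and array. No source used here states the step that made it, and GCRMA, RMA and Partek are named in the submitters' processing notes without a role. The authors' deposited SAM table gives, per the file headers, a score, a signed fold and a fold ratio, a log2 difference and a percent q-value.

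Intensities under 1 were set to 1, log2 was taken, and 64 control probe sets were set aside. A limma 3.58.1 model (R 4.3.3, constant prior, no covariate) was fitted to the remaining 45037 with Benjamini-Hochberg adjustment. The model was also run on simulated data with the control spread in both groups. That run does not cover the larger spread of the hypoxia arrays and says nothing on the calls made here. Alternatives were quantile normalization, 2 kinds of centring, offsets of 16 and 100, a filter on dim probe sets, another prior, array weights, a replicate block and leaving out each array. Single ratios used exact two-sided permutation tests (scipy 1.17.1). The number of arrays limits the precision.

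Members and lists were chosen with earlier results of these data known. The rule for named genes took all 13 members, up to 4 genes of each companion list, and the probe sets most like Fos and Nfkbia. The tables used here pair no further probe set with a gene, so companion and marker lists were not analysed here and the most alike probe sets stand by ID. Numbers 1 to 4 are shared by hypoxia and control arrays, but no source used here states that they pair samples. They were therefore not treated as pairs, and the block was run as an alternative. Deviations of same-numbered arrays correlated at -0.02 to 0.01, which cannot exclude a pairing.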

Additional observations from a re-analysis of the deposited data

Results flagged for a closer look

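Among 32 groups of 4 values examined, those of the 13 members and of 3 ratios between probe sets of one gene in hypoxia and control, 2 held an array far from the other 3 by Dixon's 95% limit, where chance gives about 1.6. For the brighter Tnfaip3 probe set, hypoxia 4 stood at 8.42 on the log2 scale, and the other hypoxia arrays at 5.10 to 5.60. For the log2 ratio of the dimmer to the brighter Nfkbia probe set, hypoxia 1 stood at -2.88, and the other hypoxia arrays at -3.46 to -3.41.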

How the results depend on the processing

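Members called lower numbered 2 as deposited, 4 with quantile normalization, median centring, an offset of 16 or array weights, 5 with centring on hybridization controls, an offset of 100, the filter on dim probe sets (22518 probe sets and 9 members tested) or the trended and robust prior, and 0 with the replicate block. With 1 array left out they numbered 0 to 2, and members called higher 0 to 1 (Ier3, without hypoxia 2). The filter went by the mean over all 8 arrays and left out the 4 members with a positive difference. It kept the brighter Tnfaip3 probe set, which lay below the array median on 3 hypoxia arrays and 0 control arrays. That probe set thus passed the filter largely through control, and its call there is no further support. The same limit holds for Btg2, below the array median on 2 hypoxia arrays and 0 control arrays. Over all probe sets, 1173 lower and 1643 higher calls became 1060 lower and 1222 higher with quantile normalization, 1446 lower and 1661 higher with array weights, 2433 lower and 1100 higher with median centring, 6129 lower and 593 higher with centring on hybridization controls, 1908 lower and 2284 higher with an offset of 16, 3639 lower and 3476 higher with an offset of 100, 3382 lower and 3006 higher with the filter on dim probe sets, and 3713 lower and 3123 higher with the trended and robust prior. With 1 array left out they were 76 to 1250 lower and 384 to 1367 higher.

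With the replicate number as a block, 0 probe sets were called lower and 0 higher over the whole array by limma, and Zfp36 and the dimmer Nfkbia probe set lost their calls, with adjusted p-values of 0.126 and 0.134. The block cannot alter a difference in this balanced design. Same-numbered arrays share only a number. Zfp36, both Nfkbia probe sets, the brighter Tnfaip3 and Jun probe sets, Btg2, Fos and Atf3 were negative under all 17 alternatives run on the intensities.

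Signs turned for members near 0. The dimmer Jun probe set was -0.29 with quantile normalization, -0.32 with median centring, -0.91 with centring on hybridization controls, -0.00805 with an offset of 16, -0.0203 with an offset of 100, and -0.33 to 0.54 with 1 array left out (exact permutation p 0.343 to 1). Junb was -0.0326 with median centring and -0.63 with centring on hybridization controls. Egr1 ran from -0.31 to 0.0442 with 1 array left out (exact permutation p 0.286 to 0.971). Ratios that turned with 1 array left out were the dimmer Jun probe set to Actb (-0.32 to 0.47), Junb to Actb (-0.11 to 0.75), Egr1 to Actb (-0.45 to 0.0912), the brighter Jun probe set to Fos (-0.31 to 0.69) and Atf3 to Fos (-0.64 to 0.31). The cause was not tested. With 3 arrays against 4 an exact p cannot go below 0.0571. Alternatives for companion and marker lists were not run, as those genes were not named.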
